A study of Mus musculus with 20 samples.

Results

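Fragments of the messenger RNAs of 4 sperm nuclear proteins, the protamines Prm1 and Prm2 and the transition proteins Tnp1 and Tnp2, were followed in cauda epididymosomes of adult male mice. They were taken as the rows of each count table that carry 1 of these symbols and the type protein_coding, which gave 4 of 72034 features (18357 of them protein-coding) in one table and 4 of 59035 (16649 protein-coding) in the other. No other row carried these symbols.

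Epididymosomes are extracellular vesicles of the epididymis, here from its distal end, the cauda, where sperm are stored. They came from 10 males aged 9 months. The MSUS group held 5 males (animals 2, 4, 6, 8 and 14) whose litters were separated from the dam at unpredictable times for 3 h per day over 14 days after birth while the dam was also stressed. The Control group held 5 males (animals 3, 5, 7, 9 and 11) from undisturbed litters. Neither the strain nor whether males shared a litter was given in the sources used here. The p-values of MSUS against Control within a table cover the spread among these males. Sperm were first removed by swim-up, and the cleared fluid was spun at 120000 rcf for 2 h. The small RNA libraries were each read in 2 runs, 1 of them after selection for fragments of miRNA size, for 20 samples in all. The values are estimated counts of fragments, so a count on Prm2 is a piece of its RNA and not an intact message.

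Protamines are small arginine-rich proteins that replace the histones of elongating spermatids and pack the DNA of the sperm head. Transition proteins occupy the chromatin between the loss of histones and the arrival of protamines. All of these genes are transcribed in round spermatids of the testis, and their messages are stored in a repressed state and translated later, after transcription has stopped. Epididymal epithelium is not known as a site of their expression.

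In the GENCODE vM21 annotation of GRCm38, 3 of the genes form a cluster of 17.9 kb on the minus strand of chromosome 16. Tnp2 (ENSMUSG00000043050.8) lies at 10787936 to 10788660, Prm2 (ENSMUSG00000038015.6) at 10791380 to 10796134 and Prm1 (ENSMUSG00000022501.6) at 10796326 to 10805839, with Prm3 between Tnp2 and Prm2. Tnp1 (ENSMUSG00000026182.6) stands alone on the minus strand of chromosome 1, at 73015074 to 73015909. Whether reads in introns were counted was not given in the sources used here. An antisense gene overlaps Prm1 in introns only. A pseudogene also overlaps Prm1, and whether it meets the exons was not checked. For Tnp1, 40 exonic bases are shared with the antisense gene 1700027A15Rik. That neighbour held 37 counts in MSUS and 35 in Control libraries of the table labelled with size selection. The use of strand in counting was not given in the sources used here, so reads in these 40 bases cannot be told apart.

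The 120 bases upstream of each RefSeq transcription start (GRCm38.p6, minus strand, read 5′ to 3′) are shown because the genes are switched on together in spermatids, and to let the promoters of the cluster be compared with that of Tnp1. Capitals mark matches to TGACNTCA, a site of the kind bound by CREM and related factors, and to the TATA-type strings TATAA and TATATA, searched on both strands.
Prm1, chr16:10796824-10796943: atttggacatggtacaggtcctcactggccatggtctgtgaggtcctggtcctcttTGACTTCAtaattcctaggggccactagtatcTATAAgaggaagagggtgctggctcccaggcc
Prm2, chr16:10792106-10792225: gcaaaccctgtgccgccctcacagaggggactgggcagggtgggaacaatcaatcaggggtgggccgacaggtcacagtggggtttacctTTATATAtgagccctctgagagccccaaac
Tnp1, chr1:73015900-73016019: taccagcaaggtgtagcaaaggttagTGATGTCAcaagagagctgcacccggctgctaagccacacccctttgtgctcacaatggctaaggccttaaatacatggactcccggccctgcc
Tnp2, chr16:10788656-10788775: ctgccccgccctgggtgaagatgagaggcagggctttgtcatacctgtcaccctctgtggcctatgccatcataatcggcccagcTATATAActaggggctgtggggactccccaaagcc
TGACNTCA was found in Prm1 from position -64 and in Tnp1, on the opposite strand, from -94, counted back from the start site. The same window of 5.07% of 32851 RefSeq promoters holds it. TATAA was found in Prm1 from -32, in Prm2 on the opposite strand from -30 and in Tnp2 from -33, against 11.8% of promoters. TATATA, which overlaps TATAA in both genes, was found in Prm2 from -29 and in Tnp2 from -35, against 2.51% of promoters. CCAAT, present in 21.3% of promoters, was in none of the 4 windows. These are matches of letters and not measured binding.

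The table labelled with size selection held 1872084 to 3647956 counts per library and is called the deeper table from here on. The table labelled as without selection held 215231 to 871461 and is called the shallower table. Mature miRNAs took 10.9 to 17.0% of counts in the deeper table and 52.4 to 72.2% in the shallower, which goes against the labels, so a direction between tables refers to the labels alone. Protein-coding rows took 7.48 to 25.2% of counts in MSUS and 19.7 to 31.6% in Control libraries of the deeper table, and 5.89 to 9.44% and 9.40 to 13.6% in the shallower. MSUS 14, Control 9 and Control 11 stood apart in the deeper table by a tRNA share of 23.8, 14.5 and 25.3%, against 34.6 to 66.0% in the other libraries. Of the markers of epididymal epithelium, Crisp1 was counted in all 10 libraries of both tables, whereas Lcn6 and Cst11 were each counted in 1 library of the deeper table.

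Prm2 was the most abundant of the genes in every library of the deeper table. It had 132, 118, 86, 70 and 145 counts in MSUS 2, 4, 6, 8 and 14, against 83, 122, 88, 149 and 187 counts in Control 3, 5, 7, 9 and 11. The groups overlapped, with the lowest count in MSUS 8 and the highest in Control 11. Scaled to 1000000 counts of the library (CPM), Prm2 stood at 44.6 ± 11.9 in MSUS and 47.0 ± 11.7 in Control libraries (SD, n = 5 each), the lowest being 26.2 in MSUS 8.

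Prm1, the protamine present across mammals, gave far fewer fragments. It had 10, 13, 9, 8 and 17 counts in MSUS libraries, against 6, 15, 12, 20 and 33 in Control libraries in the same order of animals. Both the lowest and the highest count stood in the Control group. It averaged 4.66 ± 1.52 CPM in MSUS and 6.09 ± 2.44 CPM in Control libraries (SD, n = 5 each).

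Tnp1, the shorter and more basic transition protein, had 24, 16, 11, 14 and 12 counts in MSUS libraries, against 14, 18, 10, 25 and 24 in Control libraries. Tnp2, which carries a zinc-binding region, had 29, 13, 10, 12 and 17 counts in MSUS libraries, against 12, 21, 20, 35 and 43 in Control libraries. The groups overlapped for both genes. Tnp1 averaged 6.21 ± 1.76 CPM in MSUS and 6.85 ± 2.01 CPM in Control, and Tnp2 averaged 6.34 ± 2.07 CPM in MSUS and 9.36 ± 2.37 CPM in Control (SD, n = 5 each). Counts this low leave wide counting intervals: the 10 counts of Prm1 in MSUS 2 gave 3.37 CPM, with an exact Clopper-Pearson 95% interval of 1.62 to 6.20, which covers counting error only.

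Scaled to 1000000 protein-coding counts of the library in place of all counts (protein-coding CPM), the order of the group means turned round for each of the genes. Prm2 stood at 269, 443, 297, 350 and 198 protein-coding CPM in MSUS libraries, against 202, 315, 176, 132 and 199 in Control libraries. Its MSUS mean was 312 ± 91.7 and its Control mean 205 ± 67.5 (SD, n = 5 each), with MSUS 2, 6 and 14 inside the Control range. Tnp1 averaged 46.7 ± 20.8 in MSUS and 29.6 ± 10.8 in Control, Prm1 32.8 ± 11.8 in MSUS and 26.0 ± 10.5 in Control, and Tnp2 45.2 ± 16.0 in MSUS and 40.0 ± 10.4 in Control. The groups overlapped for each of them. In bulk RNA of this kind, fewer vesicles or cells and less of an RNA in each cannot be told apart.

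**Figure D1:**
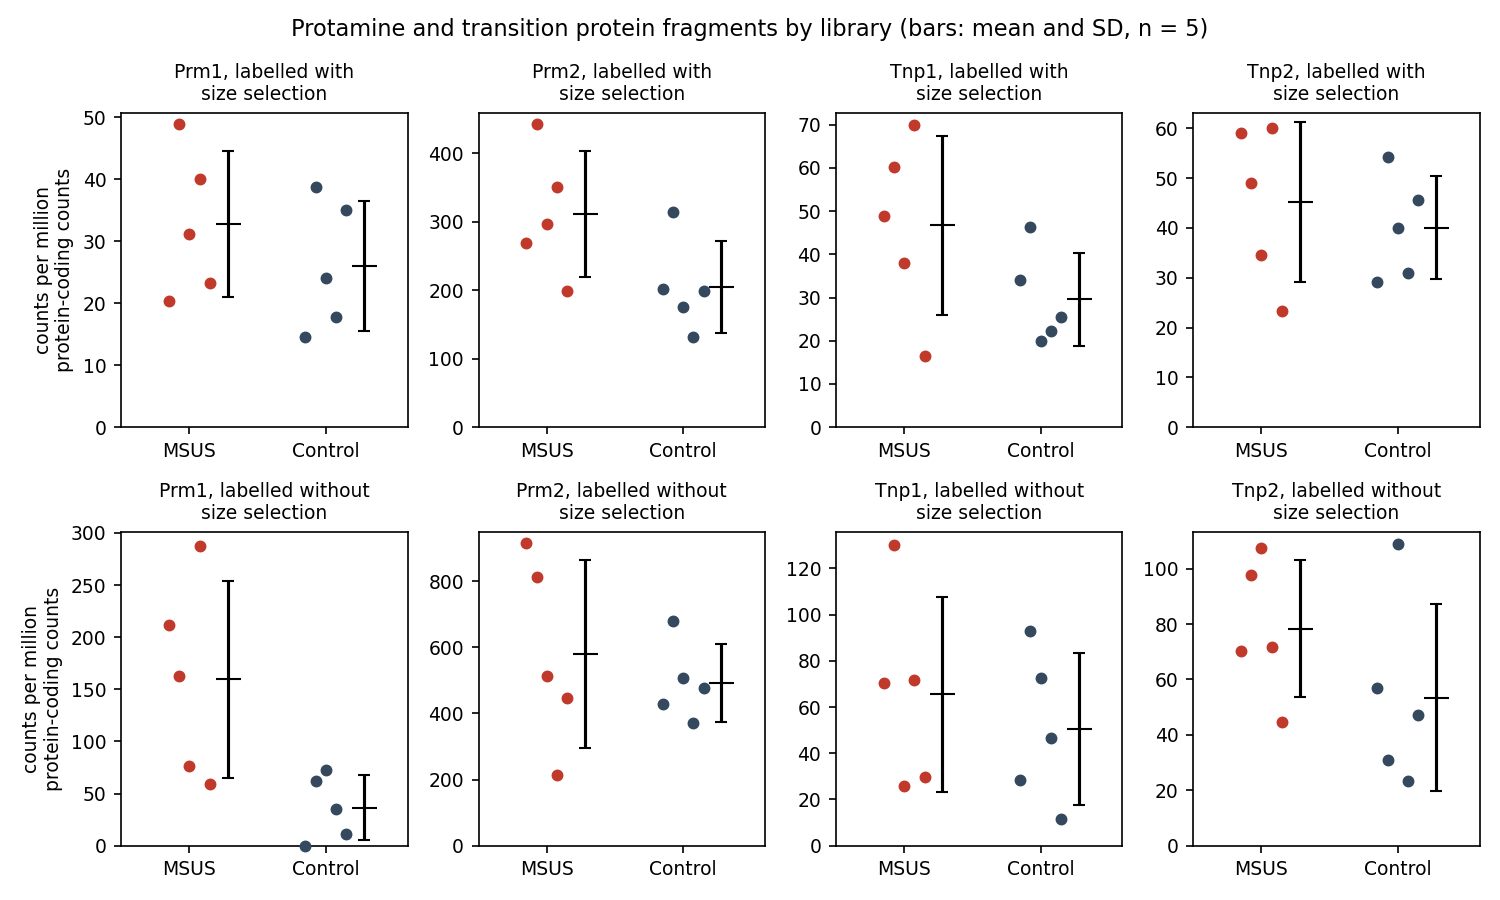
Protein-coding CPM of Prm1, Prm2, Tnp1 and Tnp2 (vertical axes, linear from 0) in MSUS and Control libraries, with 1 point per library and the mean and SD beside them. The upper panels show the table labelled with size selection and the lower panels the table labelled without; groups overlap in every panel, and Prm2 has the highest scale in each row.

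Whether MSUS altered the level of these transcripts was tested with edgeR's quasi-likelihood test over all features, with TMM scaling and Benjamini-Hochberg adjustment. An adjusted p of 0.05 was passed by 0 of 10998 features of the deeper table (0%), while 640 had an unadjusted p under 0.05 (5.82%), 379 of them higher in MSUS (3.45%). DESeq2 also called 0. None of the 4 genes passed. Prm2 had the largest of the log2 fold changes, +0.56 (SE 0.25, unadjusted p = 0.0425, adjusted p = 0.857), and was above the Control mean in 4 of 5 MSUS libraries. Tnp1 differed by +0.50 (SE 0.35, edgeR adjusted p = 0.901), and again 4 of 5 MSUS libraries exceeded the Control mean. Prm1 was at +0.13 (SE 0.31) and Tnp2 at +0.041 (SE 0.27), with edgeR adjusted p = 1.00 for each, and 3 of 5 MSUS libraries exceeded the Control mean for either gene. The median of the 4 was +0.32, beside −0.0022 for all tested features, of which 49.6% were positive. The groups did not overlap for 0 of the 4 genes, against 0.873% of all tested features.

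The direction of each gene depended on the scaling of the libraries. With library size only, Prm1 was at −0.42, Prm2 at −0.072, Tnp1 at −0.13 and Tnp2 at −0.56, and the median of all tested features moved to −0.57, so that each gene lay above that median. DESeq2, run without the filter on low counts, gave Prm2 at +0.53, Tnp1 at +0.55, Prm1 at +0.19 and Tnp2 at +0.065, with a median of +0.12 over its 61272 features. The fit to protein-coding features alone gave +0.58 for Prm2, +0.53 for Tnp1, +0.16 for Prm1 and +0.069 for Tnp2. Over the fits that left out each library in turn, Prm2 stayed between +0.39 and +0.74. Tnp1 reached +0.89 without MSUS 14 (edgeR adjusted p = 0.344), the library with the lowest Tnp1 level by TMM scaling and by protein-coding counts. Prm1 and Tnp2 crossed 0 (−0.075 to +0.35 and −0.17 to +0.34). Without MSUS 14, Control 9 and Control 11, Prm2 was at +0.52, Tnp1 at +0.65 and Tnp2 at +0.29, while Prm1 no longer passed the filter on low counts.

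**Figure D2:**
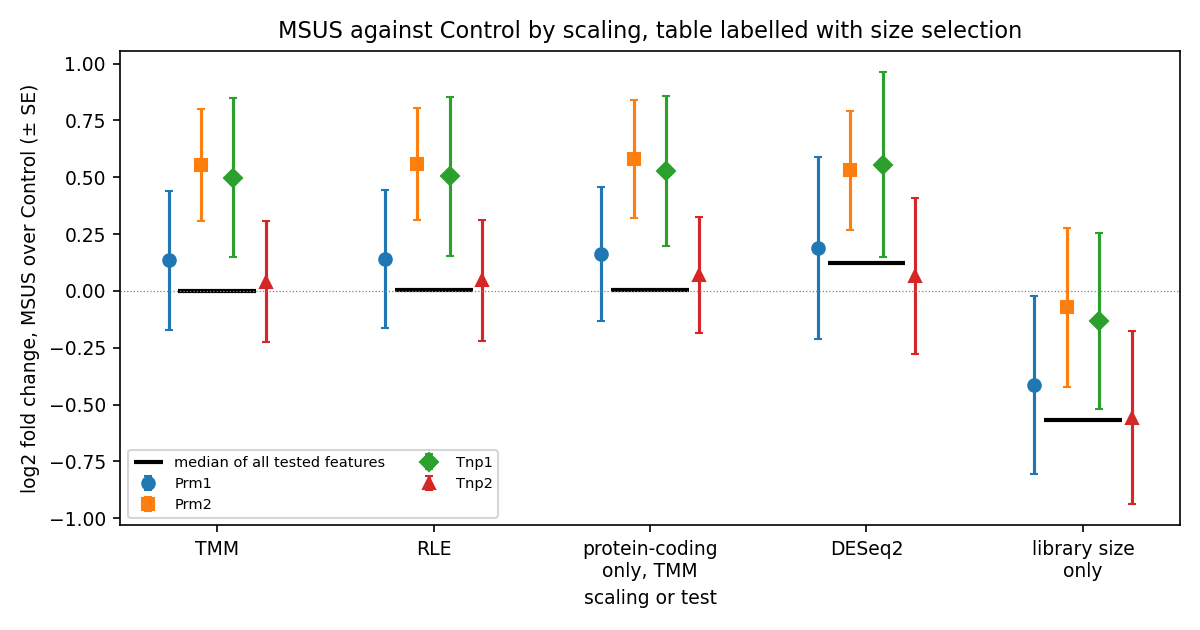
Log2 fold change of MSUS over Control (vertical axis, bars are SE) for Prm1, Prm2, Tnp1 and Tnp2 in the table labelled with size selection, under 5 ways of scaling or testing (horizontal axis). Black lines give the median of all features in each fit (the DESeq2 fit has no filter on low counts); the genes and that median shift down together with library size only, where the median is −0.57.

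The shallower table held few fragments of these genes. Prm2 had 13, 25, 20, 3 and 30 counts in MSUS libraries, against 15, 22, 14, 31.7 and 41 in Control libraries. MSUS 8 was again the lowest, at 12.7 CPM with a 95% interval of 2.61 to 37.0. Prm2 was the only member that passed the filter, with a log2 fold change of +0.043 (SE 0.30, edgeR adjusted p = 0.961), and 2 of 5 MSUS libraries exceeded the Control mean. With library size only it was −0.21, beside a median of −0.26 for all tested features, and in the protein-coding fit it was +0.24. The test was passed by 0 of 1075 features there (0%), 84 had an unadjusted p under 0.05 (7.81%, with 3.81% higher in MSUS), and DESeq2 called 0. The groups overlapped for Prm2, while they did not for 1.49% of all tested features.

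The other genes were near the limit of detection there. Prm1 had 3, 5, 3, 4 and 4 counts in MSUS libraries, against 0, 2, 2, 3 and 1 in Control libraries, so that the groups touched at 3 counts. The count of 0 in Control 3 had a floor, the level of 3 counts, of 8.25 CPM and an exact 95% interval up to 10.1 CPM. Prm1 averaged 11.1 ± 5.19 CPM in MSUS and 3.80 ± 3.06 CPM in Control libraries (SD, n = 5 each), on 19 counts in all MSUS and 8 in all Control libraries. Fitted without the filter, its log2 fold change was +1.62 (SE 0.60, edgeR adjusted p = 0.555), and DESeq2 gave +1.95 (adjusted p = 1.00). Tnp1 had 1 to 4 counts per library in MSUS and 1 to 4 in Control, and Tnp2 had 1 to 4.2 in MSUS and 1 to 4.05 in Control. Their unfiltered log2 fold changes were +0.15 (SE 0.66) and +0.43 (SE 0.61), with edgeR adjusted p = 0.897 and 0.718.

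The log2 fold change of Prm1 was thus +0.13 in the deeper and, without the filter, +1.62 in the shallower table. A test of the difference between the MSUS effects of the tables (deeper minus shallower) gave −1.68 for Prm1 (SE 0.73, unadjusted p = 0.0295, edgeR adjusted p = 1.00), and 0 of 8109 features passed (0%), with 225 at an unadjusted p under 0.05. For Prm2 the difference was +0.45 (SE 0.38), for Tnp1 +0.22 (SE 0.85) and for Tnp2 −0.53 (SE 0.66). The test of the difference took both samples of an animal as independent, although they are the same library.

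Ratios within a library do not depend on how libraries are scaled, but at low counts they depend on the pseudocount. The log2 ratio of Prm1 to Prm2, with 0.5 added to each count, averaged −3.22 ± 0.25 in MSUS and −2.97 ± 0.44 in Control libraries of the deeper table (SD, n = 5 each). The difference of −0.25 did not pass an exact two-sided permutation test (p = 0.294, adjusted p = 0.392 over 4 tests). It was −0.43 without Control 3 (exact permutation p = 0.00794, adjusted p = 0.0317), which held the lowest Control ratio, and the remaining groups did not overlap. It was −0.14 without MSUS 2 and −0.13 without Control 11. In the shallower table the ratio averaged −1.82 ± 1.26 in MSUS and −3.73 ± 1.08 in Control libraries, a difference of +1.91 (exact permutation p = 0.0238, adjusted p = 0.0952), of opposite sign. With 5 added to each count it was +0.87 (exact permutation p = 0.0714, adjusted p = 0.286). It became +1.36 without MSUS 8, where Prm1 had 4 counts and Prm2 had 3, and +2.21 without Control 7 (exact permutation p = 0.00794, adjusted p = 0.0317), where the groups no longer overlapped. For 5 against 4 libraries this p is the smallest possible. The adjusted p-values of the fits with a library left out cover the 4 ratios of that fit, not the choice of library.

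The log2 ratio of Tnp1 to Tnp2 averaged −0.02 ± 0.34 in MSUS and −0.45 ± 0.48 in Control libraries of the deeper table (SD, n = 5 each), a difference of +0.43 (exact permutation p = 0.175, adjusted p = 0.349). In the shallower table it averaged −0.35 ± 0.78 in MSUS and −0.15 ± 1.17 in Control libraries (difference −0.20, exact permutation p = 0.722, adjusted p = 0.722). The smallest p that 5 against 5 libraries allow is 0.00794.

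**Figure D3:**
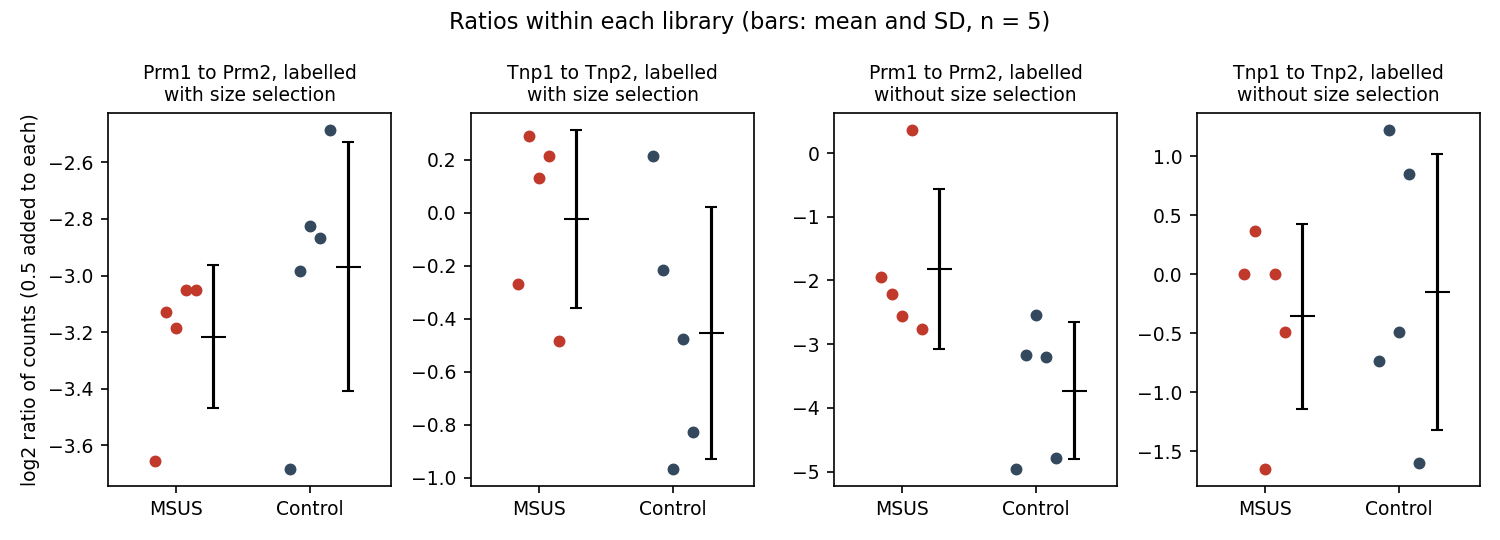
Log2 ratios of counts (vertical axes, 0.5 added to each count) of Prm1 to Prm2 and of Tnp1 to Tnp2 in MSUS and Control libraries of the table labelled with and of that labelled without size selection, with 1 point per library and mean and SD. The groups overlap in each panel, and MSUS 8 has the only ratio of Prm1 to Prm2 above 0, at +0.36 in the table labelled without size selection.

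In the deeper table Prm2 supplied 71.7 ± 3.96% of their summed counts in MSUS and 67.9 ± 2.99% in Control libraries, Prm1 supplied 7.53 and 8.64%, Tnp1 10.3 and 9.87%, and Tnp2 10.4 and 13.6% (MSUS and Control means, n = 5 each). Levels of different genes were compared per kb of exon (571 bases for Prm1, 894 for Prm2, 437 for Tnp1 and 554 for Tnp2). Prm2 was the highest in 10 of 10 libraries, with a median of 263 protein-coding CPM per kb. Tnp1 followed at 82.4 and Tnp2 at 77.3, and these neighbours did not separate, as Tnp1 was above Tnp2 in 6 of 10 libraries. Prm1 was lowest at 48.2 and below Tnp2 in 10 of 10 libraries. That last order rests on the length used, since with the shortest mRNA (460 bases for Prm1 and 621 for Prm2) Tnp2 was above Prm1 in 7 of 10.

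Ranked per kb among 17580 protein-coding genes of the deeper table, Prm2 stood between 68 and 373 (median 171) over the libraries. Tnp1 had a median rank of 733.5, Tnp2 of 764 and Prm1 of 1284. In the shallower table Prm2 ranked between 25 and 214 (median 54.5) among 15969 genes and was above Tnp1 and Tnp2 in 10 of 10 libraries and above Prm1 in 9 of 10. MSUS 8 was the exception.

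Between the tables, Prm2 was lower in the deeper one (log2 −0.94, SE 0.19, edgeR adjusted p = 0.000357). In that fit 2547 of 7142 features passed (35.7%), 1227 of them lower (17.2%). It took both samples of an animal as independent, although they are the same library. Tnp2 differed by −0.35 (SE 0.34, edgeR adjusted p = 0.453), and Prm1 and Tnp1 did not pass the filter. The Prm2 call ended with library size only (−0.055, adjusted p = 0.821), and Tnp2 then turned to +0.55, while the median of all features moved to +1.02, against +0.072 with TMM. With the animal as a replicate block, Prm1 was lower as well (−0.92, edgeR adjusted p = 0.0376) beside Prm2 at −0.88. That fit also kept more features, 10303 with Prm1 among them, of which 35.7% passed, 16.3% lower and 19.4% higher.

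Other genes of spermatid chromatin ranged from a few counts to many. Prm3, the neighbour inside the cluster, had 4 counts in all MSUS and 1.03 in all Control libraries of the deeper table. Of 13 listed genes with a row, 6 were counted in all 10 libraries, 2 could be tested and 0 passed. With library size only, 0 of the 2 were positive, as were 2.71% of all tested features. Tssk6, a kinase needed for chromatin condensation, was at +0.32 (SE 0.30), and Psme4, a proteasome activator that acts in histone loss, was at −0.14 (SE 0.11) in the deeper and −0.26 in the shallower table. Psme4 held 1767 counts over the 10 libraries of the deeper table, against 1179 of Prm2, while Brdt, a reader of acetylated histones, held 18.6. These counts are not scaled to exon length, so they do not rank the genes by level. Summed, the list stood at 339 to 460 protein-coding CPM in MSUS and 365 to 447 in Control libraries of the deeper table. Most of that sum was Psme4, and Tssk6 came next with 102 counts over the 10 libraries.

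Of 12 regulators of protamine genes, 5 were tested in the deeper table. With TMM 3 were positive, beside 49.6% of all tested features (0 with library size only), and 0 passed (median +0.08). Crem, the activator of genes expressed after meiosis, was at −0.45 (SE 0.25, edgeR unadjusted p = 0.0900). Tbpl1, a factor of round spermatids related to the TATA-binding protein, was at −0.35 (SE 0.24). Ybx2, which binds and stores protamine messages, was at +0.082, its relative Ybx3 at +0.12 and the methyltransferase Prmt5 at +0.18. None of the 11 regulators with a row in the shallower table passed the filter. The list summed to 296 to 442 protein-coding CPM in MSUS and 291 to 476 in Control libraries of the deeper table.

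Other transcripts of late spermatids had positive log2 fold changes with TMM scaling, as Prm2 did, and negative ones with library size only. Of 18 listed genes, 15 were counted in all 10 libraries of the deeper table and 11 were tested. With TMM, 11 of 11 were positive (median +0.49, beside −0.0022 and 49.6% positive for all features), but 0 passed. With library size only, 0 of 11 were positive (median −0.14, beside −0.57 and 2.71% positive for all features). Smcp, of the sperm mitochondrial capsule, had the smallest p (+0.59, SE 0.14, unadjusted p = 0.000701, edgeR adjusted p = 0.837). The summed level of the list was 2257 to 3271 protein-coding CPM in MSUS and 1436 to 2256 in Control libraries. In the shallower table it was 2764 to 3911 in MSUS and 2019 to 2996 in Control. There 3 of 3 tested genes were positive with TMM, beside 50.6% of all features, and 2 of 3 with library size only, beside 24.6%. Odf1 of the sperm tail was at +0.62 (SE 0.30).

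Relative to these transcripts the MSUS means of Prm2 and Tnp1 in the deeper table were close to the Control means, and those of Prm1 and Tnp2 were below them. Per 100 late spermatid counts in the deeper table, Prm2 had 11.2 ± 1.97 counts in MSUS and 11.2 ± 2.28 in Control libraries (SD, n = 5 each), ranging from 8.79 to 14.2 in MSUS and from 8.60 to 13.9 in Control. Tnp1 had 1.64 ± 0.56 in MSUS and 1.63 ± 0.41 in Control, Prm1 had 1.17 ± 0.28 in MSUS and 1.41 ± 0.37 in Control, and Tnp2 had 1.62 ± 0.49 in MSUS and 2.22 ± 0.39 in Control. The groups overlapped for each gene. In the shallower table Prm2 had 17.8 ± 9.09 in MSUS and 20.4 ± 2.48 in Control, and Prm1, on few counts, had 4.62 ± 2.48 in MSUS and 1.52 ± 1.33 in Control. Tnp1 had 1.88 ± 1.02 in MSUS and 2.08 ± 1.23 in Control there, and Tnp2 had 2.33 ± 0.67 in MSUS and 2.30 ± 1.61 in Control. These are descriptions without a test, as the list was chosen with earlier results known.

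**Figure D4:**
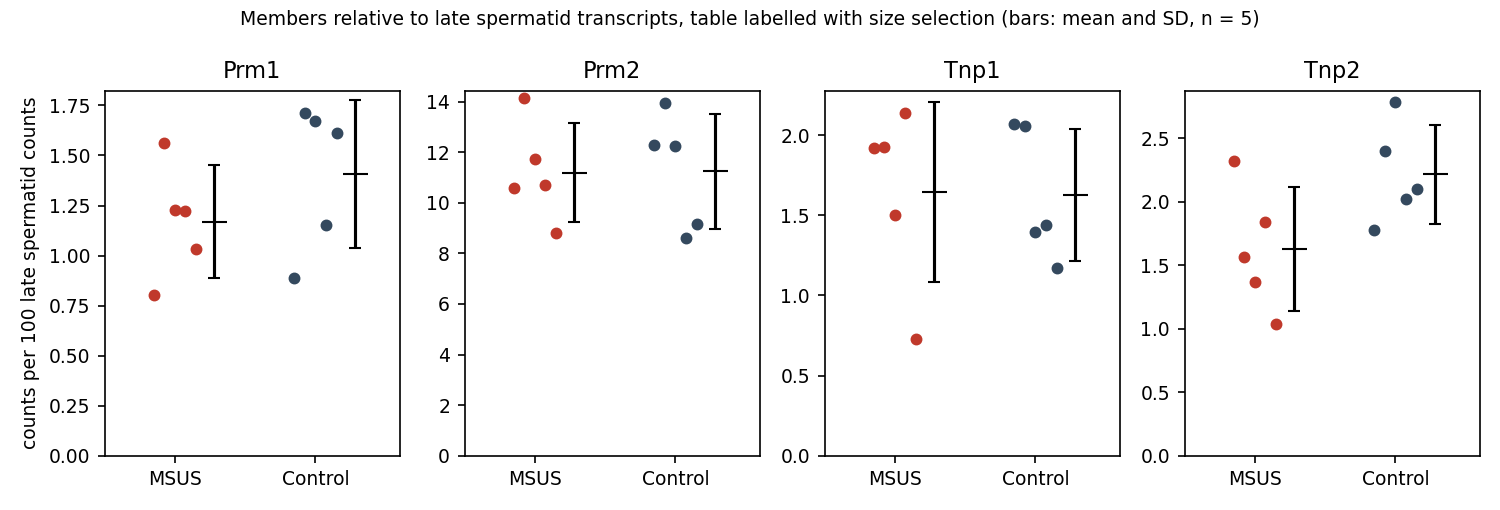
Counts of Prm1, Prm2, Tnp1 and Tnp2 per 100 counts of 18 late spermatid genes (vertical axes, linear from 0) in MSUS and Control libraries of the table labelled with size selection, with 1 point per library and mean and SD. Prm2 averages 11.2 in MSUS and 11.2 in Control, and the groups overlap in each panel.

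Markers of other cells were followed in the same way, in the deeper table beside 49.6% of all tested features positive with TMM scaling. Of the muscle and stroma list, 12 of 12 genes were counted in all libraries of the deeper table and 11 of 12 were positive (5 of 12 with library size only, beside 2.71% of all tested features), with a median of +0.34, Myh11 of smooth muscle at +0.68 (SE 0.30) and a summed level of 2892 to 6697 protein-coding CPM in MSUS and 2159 to 4277 in Control. Of this list 1 of 3 tested genes was positive in the shallower table (2 of 3 in the protein-coding fit), beside 50.6% of all features tested there, and Myh11 was at +0.31. Blood cell genes had 3 of 3 positive in the deeper table (0 of 3 with library size only, median +0.20, Lyz2 at +0.39, summed level 616 to 943 in MSUS and 463 to 834 in Control) and Cd74 at −0.26 in the shallower. Epididymal epithelium had 3 of 6 positive (0 of 6 with library size only, median +0.05, Aqp9 at −0.32, SE 0.11, edgeR adjusted p = 0.837) and 0 of 5 in the shallower table (median −0.21, Aqp9 at −0.48), but 2 of 4 in its protein-coding fit (median +0.0066), with sums of 11278 to 17680 in MSUS and 12281 to 17609 in Control libraries of the deeper table. Early germ cell genes other than Zbtb16 were near the floor in the deeper table. Zbtb16, at −0.25, was the 1 of 9 counted in all 10 libraries. It held 233 counts over these libraries, and Ddx4 came next with 30. The sum of this list, most of it Zbtb16, was 33.4 to 68.4 in MSUS and 46.6 to 69.9 in Control. No gene of these lists passed in either table. The part of these markers, and of the protein-coding share, in the values of Prm2 and Tnp1 was not tested.

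The profiles over the 10 libraries of the deeper table were compared with those of 7335 protein-coding features, as the root mean square difference of centred log2 CPM after TMM scaling (lower is more alike). Closest to Prm1 were Klc2 (0.179), Odf2 (0.205) and Oaz3 (0.216), against a median of 0.541 over all features. Closest to Prm2 were Reep6 (0.185), Gapdhs (0.218) and Ctdspl (0.219), against a median of 0.560. Tnp1, the most variable of the genes over libraries, had Tcp11 (0.247) and Tbl2 (0.273) among its closest, against a median of 0.660. Tnp2 was closest to Pex26 (0.205), Man2b1 (0.207) and Retsat (0.209), against a median of 0.491. Among themselves the genes differed by 0.306 (Prm2 and Tnp1) to 0.523 (Prm1 and Tnp1), with 0.331 between Prm1 and Prm2 and 0.393 between Tnp1 and Tnp2. Each pair lay below the medians of both its genes. The closest features were picked as the smallest of 7335 differences, so they are no yardstick for these pairs. These likenesses share libraries, depth and scaling and carry no test.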

How the data were processed

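Small RNA of 10 epididymosome libraries was sequenced in 2 runs. The authors deposited estimated counts for each annotated RNA, many not whole, as 2 tables whose columns were matched to samples by animal number and whose run was taken from the series' design text. Per the submitters' processing notes, the authors used build GRCm38 with STAR and edgeR. The way reads were assigned was not given in the sources used here. No column of other samples was present (0).

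The estimated counts were rounded for the count tests. This removed 0.0504 to 0.0992% of a library in the deeper table and 0.266 to 0.689% in the shallower, which are labelled with and without size selection. Each table was fitted separately over all features with edgeR 4.0.16 in R 4.3.3 (filterByExpr, TMM, robust quasi-likelihood test, Benjamini-Hochberg, threshold 0.05), and DESeq2 1.42.0 was an alternative. Standard errors came from the quasi-likelihood F statistic. The comparison between tables and the interaction used all 20 samples and features in both tables. Their main fits did not include the animal. Ratios were tested by exact permutation in Python 3.11.15, and the counting intervals came from scipy 1.17.1. Tests were tried on simulated data.

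Both samples of an animal are the same library, per the labels. Their deviations from group means over 1074 features correlated at 0.368 to 0.759, against at most 0.552 between different animals, and 9 of 10 animals matched themselves best.

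The members and gene lists were chosen with earlier results of these data known. The genes named are the members, the gene of each list with the smallest unadjusted p per table, every tested gene of the spermatid chromatin and regulator lists, and the 3 protein-coding features closest to each member, of which 1 is not reported here. Exon lengths are from GENCODE vM21 and promoters from RefSeq.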

Additional observations from a re-analysis of the deposited data

Results flagged for a closer look

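In 40 groups of 5 libraries, values that stood far from the other 4 by Dixon's criterion (critical value 0.71) occurred in 2, where chance gives about 1 in 20 groups. In the table labelled with size selection, MSUS 2 had a log2 ratio of Prm1 to Prm2 of −3.66, while the other MSUS libraries lay between −3.19 and −3.05. In the table labelled without size selection, MSUS 8 had a log2 ratio of +0.36, while the other MSUS libraries lay between −2.76 and −1.95. It rests on 4 counts of Prm1 and 3 of Prm2.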

How the results depend on the processing

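In the shallower table, depth left 3 of the 4 genes below its filter. With library size only, the log2 fold changes in the table labelled with size selection turned to −0.42 (Prm1), −0.072 (Prm2), −0.13 (Tnp1) and −0.56 (Tnp2), that of Prm2 in the other table to −0.21, the table difference of Tnp2 to +0.55 and the interaction of Tnp1 to −0.072, and the table difference of Prm2 no longer passed (−0.055). Without the filter, Tnp2 was at −0.026 in the first table and Prm2 at −0.013 in the second, and without MSUS 14, Control 9 and Control 11 Prm2 in the second was at −0.14. Features called in the first table numbered 3 with library size only (0 higher and 3 lower), 48 without the filter (40 and 8) and 0 to 2 with each library left out (2 without Control 3). In the second they numbered 1 with library size only (0 and 1), 2 without those 3 libraries (2 and 0) and 0 with each library left out. Between tables, 5626 features passed with library size only (5081 higher and 545 lower), 1170 in the protein-coding fit (577 and 593) and 5485 by DESeq2 (1337 and 4148), against 2547 (1320 and 1227). The unfiltered, protein-coding and DESeq2 fits covered other sets of features than the main fits, so their counts cannot be compared as shares. The cause of these shifts was not tested.

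With each library left out, log2 fold changes ranged from −0.075 to +0.35 (Prm1), +0.39 to +0.74 (Prm2), +0.36 to +0.89 (Tnp1) and −0.17 to +0.34 (Tnp2) in the first table, and from −0.17 to +0.19 for Prm2 in the second. Ratio differences ranged from −0.43 to −0.13 and from +1.36 to +2.21 for Prm1 to Prm2, and from +0.30 to +0.60 and from −0.57 to +0.14 for Tnp1 to Tnp2, in the first and second table. With a pseudocount of 5 they were −0.18, +0.87, +0.35 and −0.082 in that order. Prm1 could not be fitted without the 3 libraries.

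With the animal as a replicate block, 3678 of 10303 features passed between tables and 0 in the interaction, where Prm1 was at −1.60, Prm2 at +0.46, Tnp1 at +0.18 and Tnp2 at −0.60. The block left the table differences at −0.92 (Prm1), −0.88 (Prm2), −0.31 (Tnp1) and −0.27 (Tnp2). No paired analysis was possible for MSUS against Control because these groups share no animal numbers.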
